A study of Mus musculus with 18 samples.

Results

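Long-term haematopoietic stem cells (LT-HSC) of knockout mice that carry the Wnt5a label were compared with untreated wild-type LT-HSC, to see what still differs between the knockout and the wild type after the treatment described as a rescue. The comparison takes 6 of the 18 RNA-seq libraries, 3 titled KO Wnt5a and 3 titled WT, which were chosen by their titles and not by any measured value. Per the labels, WT are wild-type cells and KO Wnt5a are a rescue of the knockout with Wnt5a. The knockout removes DERARE, a retinoic acid response element that lies distal to the Hoxb genes. Another 6 libraries were used to place these values and to estimate the spread in the fit, namely 3 of knockout control cells (KO Ctrl) and 3 of a group labelled Wnt5a alone, read here as wild-type cells with Wnt5a. All cells came from bone marrow and were sorted as Lineage-negative, Sca-1+, c-Kit+, CD34-, Flk2- and CD49b-low. The labels give no strain, age or sex, do not say how, how long or at what dose Wnt5a was given, and do not say whether replicates are separate animals, so p-values measure only the spread between these libraries. Genotype and Wnt5a both differ between KO Wnt5a and WT, so the 2 cannot be told apart within these 6 libraries alone.

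LT-HSC are rare, mostly quiescent cells that renew themselves and give rise to every blood lineage. Hoxb genes encode homeodomain transcription factors that respond to retinoic acid and act in stem and progenitor cells, and DERARE is one of the elements that pass this response on to the cluster. Wnt5a is a secreted ligand of noncanonical Wnt signalling, which works through receptors such as Ror2 and Ryk on cell polarity, small GTPases and calcium rather than through beta-catenin, and it is known in blood-forming tissue for effects on stem cell quiescence and ageing.

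Values are deposited FPKM, that is, fragments corrected for how long a transcript is and how many fragments a library holds. The steps between low values imply 34100000 to 41200000 fragments per library in the 6 libraries and 22000000 (KO Ctrl replicate 1) to 41100000 in the other 6. Replicates correlated with each other at Pearson's r of 0.964 to 0.967 in KO Wnt5a and 0.968 to 0.971 in WT, across genes, which are not independent replicates. The gate genes were read first. Ly6a, which encodes Sca-1, was at 91, 85.8 and 95.7 FPKM in the WT libraries and at 172, 165 and 201 in KO Wnt5a. Kit was at 17.8, 17.8 and 11.6 in WT and 28.2, 25.5 and 33.1 in KO Wnt5a, and of the 3 gate genes tested Ly6a and Kit were called higher and Cd34 lower. Flt3, which encodes Flk2, and Itga2, which encodes CD49b, stayed below the filter, with means of 0.516 and 0.31 in WT and 0.636 and 0.021 in KO Wnt5a, but Cd34 was abundant in all 6 libraries (370.2, 341 and 362 in WT and 309, 299.8 and 312 in KO Wnt5a) although the gate takes cells without CD34 protein on their surface. Markers of other cells ranged widely over the 6 libraries. The summed level was 8558 to 33840 FPKM for megakaryocyte markers, 329.6 to 814.8 for monocyte and macrophage markers, 431.3 to 544.5 for mast cell, basophil and eosinophil markers and 161.4 to 204.5 for T and natural killer cell genes. Some single markers were low, with the T cell gene Cd3e listed at 0, the stromal chemokine Cxcl12 at no more than 0.015 and the neutrophil genes S100a8 and S100a9 at no more than 1.71. They were named after their values were seen. Others were not low, such as the platelet chemokine gene Pf4 and, in WT, the granule gene Mpo (values below). The low ones therefore do not show that other cells were absent. Every library held both Xist (2.46 to 2.76 in WT, 4.04 to 6.79 in KO Wnt5a) and Y-linked transcripts such as Ddx3y (6.72 to 8.47 and 4.82 to 5.97).

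Of 12075 genes that reached 1 FPKM in 3 or more of the 6 libraries, 2701 (22.4%) differed between KO Wnt5a and WT at an adjusted p below 0.05 in limma, 1657 higher (13.7%) and 1044 lower (8.65%) in KO Wnt5a. The split depends on the scaling: quantile normalization gave 1077 higher and 1151 lower, and median-ratio scaling 1047 and 1530. The calls common to all 3 scalings, with the same direction, were 1808 genes. The groups of 3 libraries did not overlap for 2672 of the 2701, against 43.3% of all genes tested. Without WT replicate 3 the count was 1170, and 1074 genes (556 higher, 518 lower) were called whichever of the 12 libraries was left out. Among called genes, 96 were higher and 234 lower by more than 1 on the log2 scale. For comparison, 873 genes (7.23%) were called in KO Ctrl against WT, 152 (1.26%) in KO Wnt5a against KO Ctrl and 4 (0.0331%) in Wnt5a against WT, where 1664 genes had an unadjusted p below 0.05 in limma. These 3 comparisons share libraries with KO Wnt5a against WT, so their values are only set side by side. Fold changes below are differences of log2(FPKM + 1), with their SE and adjusted p from limma, and understate the change of low genes. A gene below 1 FPKM in all 3 libraries of 1 group was tested only if all 3 of the other reached 1. Such a gene had to differ to be tested. In bulk libraries fewer cells of a kind and less RNA per cell cannot be told apart.

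Among named protein-coding genes the largest fall was that of Npy, which encodes neuropeptide Y, a signalling peptide of nerves and of some blood cells. Npy was at 184, 143 and 251 FPKM in the WT libraries and at 2.04, 3.16 and 0.949 in KO Wnt5a (log2 fold change -6.02, SE 0.57, adjusted p = 0.000489). Its level in KO Ctrl, 71.8 ± 38.7 (SD, n = 3), and in Wnt5a, 180.2 ± 121, was far from that of KO Wnt5a, and the fall from KO Ctrl to KO Wnt5a was called too (log2 fold change -4.52, adjusted p = 0.0104). Slc6a4, the serotonin transporter that loads platelets, was at 78.4, 70.9 and 83.6 in WT and 3.23, 0.655 and 0.689 in KO Wnt5a (log2 fold change -5.11, SE 0.88, adjusted p = 0.00575). In the Wnt5a group its libraries spread from 5.17 to 76.5. Il1b, the inflammatory cytokine interleukin-1 beta, was at 166, 259 and 181 in WT and 25.7, 20.4 and 10.9 in KO Wnt5a (log2 fold change -3.39, SE 0.48, adjusted p = 0.00249). The rule that took these genes required groups of 3 libraries that do not overlap, so their separation is no added result. Cdkn2b, an inhibitor of the G1 kinases, stood at 6.95, 16.7 and 11.9 in WT and 0.94, 0.107 and 0 in KO Wnt5a (log2 fold change -3.24, SE 0.40, adjusted p = 0.000507). Below 1 FPKM in KO Wnt5a, Cdkn2b passed the filter only through WT and had to differ to be tested. Other large falls were those of Ptgir, the prostacyclin receptor (-3.23), Rasal1, a Ras GTPase-activating protein (-3.28), Gpc4, a cell surface proteoglycan (-3.004), and the focal adhesion protein gene Tgfb1i1 (-2.97). Snord91a, Serpinb2, Gp6 and Ly6g6f were among the 15 largest falls as well, but each lost its call without WT replicate 3, and all but Gp6 also without other single libraries of the 6, with an adjusted p of up to 0.103. Slc6a4 overlaps Gm12343 and Il1b overlaps Il1bos on the other strand, and these unstranded libraries cannot separate such pairs.

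Among the rises, Ctse, which encodes the aspartic protease cathepsin E, went from 1.11, 0.855 and 1.44 FPKM in WT to 18.4, 24 and 27.6 in KO Wnt5a (log2 fold change 3.499, SE 0.22, adjusted p = 1.25e-06). Syce1, a component of the meiotic synaptonemal complex, was listed at 0 in 2 WT libraries and at 0.019 in the other, and at 30.6, 25.8 and 11.8 in KO Wnt5a (log2 fold change 4.46, SE 0.33, adjusted p = 8e-06). Rpl39l, a paralog of the ribosomal protein gene Rpl39 and normally a testis gene, was at 0, 0 and 0.124 in WT and 8.53, 10 and 12.5 in KO Wnt5a (log2 fold change 3.43, SE 0.25, adjusted p = 5.75e-06). Below 1 FPKM in WT, Syce1 and Rpl39l could pass the filter only through the KO Wnt5a libraries, so they had to differ to be tested. Reads may be shared between Rpl39l and Rpl39, so the Rpl39l value is uncertain. Rgs2, a regulator of G protein signalling, was at 12.7, 12.5 and 14 in WT and 40.4, 32.6 and 45.6 in KO Wnt5a (log2 fold change 1.52, SE 0.14, adjusted p = 4.85e-05). Lbhd2 was at 8.48, 9.07 and 8.49 in WT and 24.5, 21.7 and 26.2 in KO Wnt5a (log2 fold change 1.37, SE 0.13, adjusted p = 6.13e-05). Pmepa1, an inhibitor of TGF-beta signalling, Bdh2, a dehydrogenase of the cytosol, and Ypel3, a growth suppressor, rose by 1.58, 1.55 and 1.403 on the log2 scale. Chad and Acsf2 also rose (2.17 and 1.59), but they overlap on opposite strands and cannot be told apart.

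**Figure D1:**
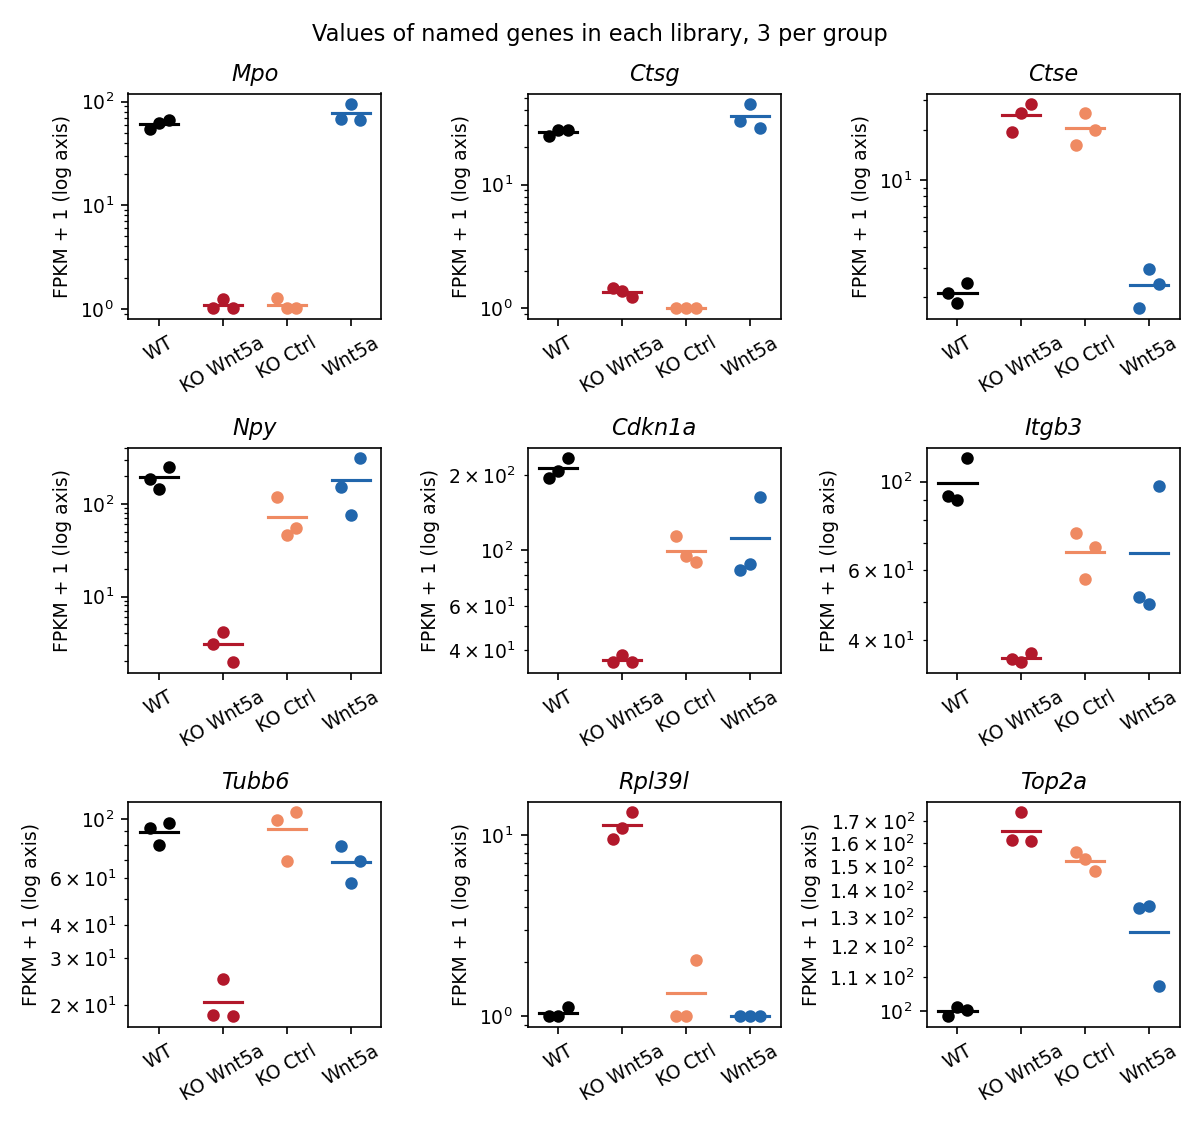
FPKM + 1 on a log axis for 9 named genes in each library of WT, KO Wnt5a, KO Ctrl and Wnt5a (points, 3 per group, replicate 1 to 3 from left to right, horizontal lines at the group mean). Mpo, Ctsg and Ctse differ between the knockout groups and the other 2, while Npy, Tubb6 and Rpl39l stand apart in KO Wnt5a alone.

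The difference between KO Ctrl and Wnt5a shares no library with the difference between KO Wnt5a and WT, although all 12 libraries entered the estimate of the spread. In KO Ctrl minus Wnt5a the genotype differs the same way as in KO Wnt5a minus WT and the Wnt5a label the opposite way. Its sign alone does not tell genotype and Wnt5a apart, since both, or their combination, can enter a gene's difference. In that comparison 163 genes (1.35%) were called, 89 higher (0.737%) and 74 lower (0.613%). Of the 1657 genes higher in KO Wnt5a, 1268 (76.5%) had a positive difference in KO Ctrl minus Wnt5a, against 52.7% of all genes, and 58 were called higher there. Of the 1044 lower genes, 769 (73.7%) had a negative difference, against 47.3% of all genes, and 31 were called lower. In all, 89 genes were called in both comparisons with the same sign and 4 with opposite signs. The size of the differences was smaller, with medians of 0.134 for the higher and -0.114 for the lower genes.

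**Figure D2:**
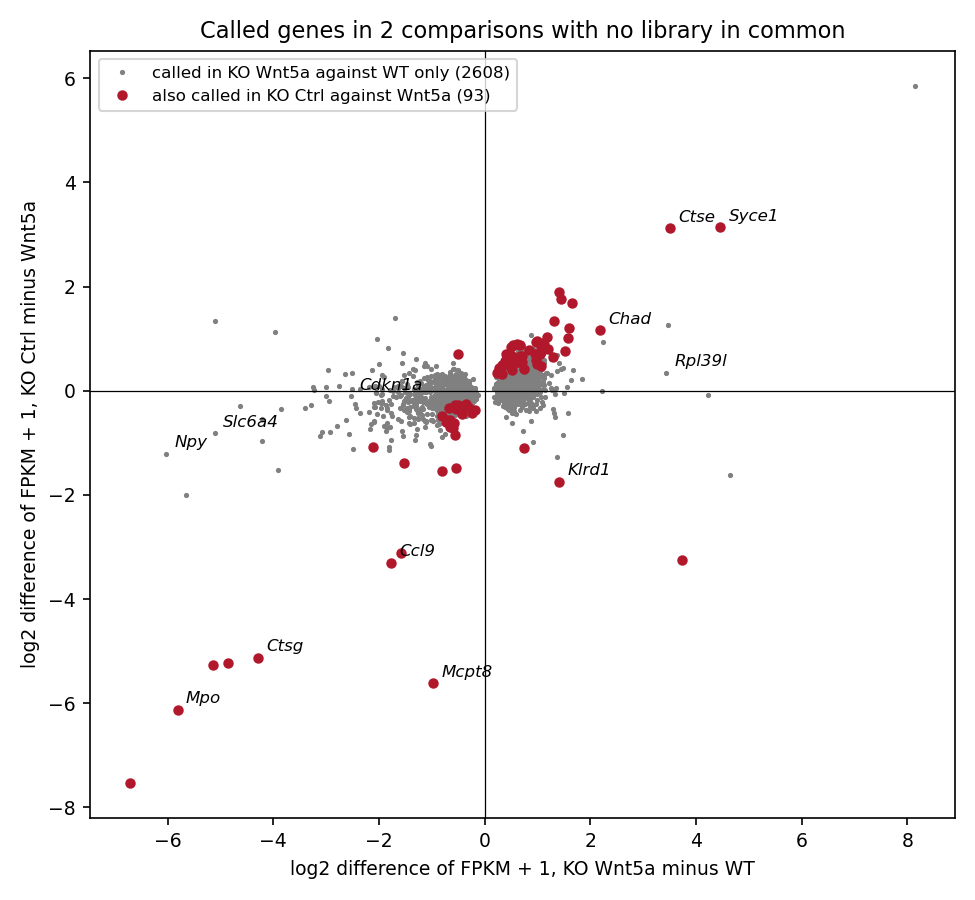
Log2 differences of the 2701 called genes in KO Wnt5a minus WT (horizontal) and in KO Ctrl minus Wnt5a (vertical), 1 point per gene, with the 93 genes also called in the second comparison in red. Mpo, Ctsg, Ctse and Syce1 lie far from 0 on both axes, Npy and Rpl39l far from 0 only on the horizontal one, and the point at the far right is the T cell receptor joining segment Trgj4.

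The primary granule genes include Mpo and Ctsg, whose levels separated both knockout groups from both others. These genes encode the enzymes of the azurophil granules that myeloid progenitors make. Mpo, which encodes myeloperoxidase (ENSMUSG00000009350, chromosome 11, 87793581 to 87804413 in GRCm38), was at 53.7, 60.9 and 65.4 FPKM in WT and at 0.022, 0.234 and 0.011 in KO Wnt5a (log2 fold change -5.81, SE 0.16, adjusted p = 2.47e-10). It was at 0.273, 0.011 and 0.01 in KO Ctrl and 67.4, 94.5 and 65.9 in Wnt5a (log2 fold change -6.12, SE 0.16, adjusted p = 1.26e-10 for KO Ctrl minus Wnt5a). All 6 knockout libraries were below 0.3 and all 6 others above 50. Gm11505, on the other strand of Mpo, cannot be separated from it. Ctsg, the granule protease cathepsin G (ENSMUSG00000040314, chromosome 14, 56099881 to 56102574), was at 23.5, 26.4 and 26.8 in WT, 0.447, 0.382 and 0.246 in KO Wnt5a, 31.8, 43.9 and 27.8 in Wnt5a, and was listed at 0 in the 3 KO Ctrl libraries. Its difference between KO Wnt5a and WT was -4.29 on the log2 scale (SE 0.16, adjusted p = 2.1e-09). Mpo and Ctsg, below 1 FPKM in KO Wnt5a, passed the filter only through WT. They had to differ between these groups to be tested, while the KO Ctrl and Wnt5a libraries did not enter the filter. Ms4a3, a marker of granulocyte and monocyte progenitors, fell as well, with 19.4, 20.5 and 28.8 in WT and 7.15, 8.16 and 6.25 in KO Wnt5a (log2 fold change -1.53, SE 0.17, adjusted p = 0.00016). Elane, neutrophil elastase, was low throughout (0.506 to 1.26 in WT, 0 to 0.071 in KO Wnt5a) and below the filter, while Prtn3, proteinase 3, gave 22.1 to 30 in WT and 21.4 to 24.8 in KO Wnt5a (log2 fold change -0.185, adjusted p = 0.477). Of the 12 tested members, 6 fell (50%, against 8.65% of all genes) and 2 rose (16.7%, against 13.7%). Their median was -0.30, against a median of 0.0995 over all genes. The list's median in KO Ctrl minus Wnt5a was -0.46, and 6 of the 12 were called lower there.

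Promoters of this list were read for the letters that ETS factors such as PU.1 bind. The string AGGAAG, searched on both strands in the 250 bases before each RefSeq start in GRCm38.p6, was present for 8 of the 10 tested members with a promoter in the RefSeq table, and for 32.3% of all 27025 genes in it. The same search in the megakaryocyte markers found it for 9 of 21 members with a promoter (42.9%). The promoter of Ctsg is shown because it belongs to the primary granule member that fell most without an overlapping gene. It is the minus strand of chr14:56102575-56102824, with each match in capitals, the nearest of which begins 15 bases before the start.
Ctsg: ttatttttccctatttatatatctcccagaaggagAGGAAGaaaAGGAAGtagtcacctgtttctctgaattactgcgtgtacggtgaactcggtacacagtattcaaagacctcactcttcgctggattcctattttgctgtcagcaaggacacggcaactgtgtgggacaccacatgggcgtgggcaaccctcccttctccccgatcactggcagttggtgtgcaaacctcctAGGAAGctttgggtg
A match describes the letters and shows no binding.

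Other genes behaved like Mpo in both comparisons. Ccl9, a chemokine of myeloid cells, was at 7.5, 4.29 and 7.55 in WT and 1, 1.47 and 0.938 in KO Wnt5a (log2 fold change -1.78, SE 0.24, adjusted p = 0.000503), with means of 0.242 in KO Ctrl and 11.2 in Wnt5a. Slpi, an inhibitor of neutrophil proteases, was at 3.11, 3.1 and 2.95 and 1.07, 0.17 and 0 (log2 fold change -1.59, SE 0.28, adjusted p = 0.0024). It was not called with all 18 libraries in the fit (adjusted p = 0.0637). Both genes were low in the 2 knockout groups and high in the 2 others. Ctse and Syce1 were the reverse, with means of 19.4 and 8.34 in KO Ctrl, while Ctse averaged 1.36 in Wnt5a and Syce1 was listed at 0 in the 3 Wnt5a libraries. Xaf1, an interferon-induced apoptosis factor, rose (log2 fold change 1.32, SE 0.18, adjusted p = 0.000489), with a difference of 1.34 in KO Ctrl minus Wnt5a (adjusted p = 0.00169). Of the 89 genes called in both with the same sign, 19 lie on chromosome 11, which is 1.87% of the 1017 genes tested there, and 0.737% of all genes tested were called in both with the same sign. The Hoxb cluster lies on the same chromosome (96194316 to 96368256), and of the 19 genes Mpo, Ccl9, Chad, Acsf2 and Xaf1 are described here.

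The genes called in both comparisons with opposite signs were Klrd1, Emd, Cryab and Gm25436. Klrd1, which encodes CD94 of natural killer cells, was at 1.18, 1.9 and 1.84 in WT and 7.26, 5.27 and 5.39 in KO Wnt5a, and at 0.36, 1.05 and 0.349 in KO Ctrl and 3.4, 4.22 and 5.18 in Wnt5a (log2 fold change 1.402, SE 0.21, adjusted p = 0.00093 in KO Wnt5a against WT). The 2 groups with the Wnt5a label were thus higher than the 2 without it. With all 18 libraries in the fit the adjusted p was 0.0545. Emd and Cryab lost their call without WT replicate 2, WT replicate 3 or KO Wnt5a replicate 1, Emd also without KO Wnt5a replicate 2 and Cryab without KO Wnt5a replicate 3, with adjusted p of up to 0.119 and 0.0766. Cryab overlaps Hspb2 on the other strand.

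Targets of the tumour suppressor p53 were lower in KO Wnt5a. p53 is a transcription factor switched on by DNA damage and other stress, and its targets halt the cell cycle, start apoptosis or repair DNA. Of 33 tested members 21 fell (63.6%, against 8.65% of all genes) and 1 rose, Sesn1 (3.03%, against 13.7%). The median was -0.63, and 18 of the falls were kept in every fit that left 1 library out. Cdkn1a, the gene of p21, which blocks cyclin-dependent kinases, was at 194, 207 and 233 FPKM in WT and 34.7, 37.3 and 34.6 in KO Wnt5a (log2 fold change -2.53, SE 0.21, adjusted p = 8.68e-05). Phlda3, an inhibitor of Akt signalling, was at 51.2, 60.3 and 62 and 11.9, 9.04 and 8.83 (log2 fold change -2.43, SE 0.20, adjusted p = 2.4e-05). Bax, which opens the mitochondrial membrane in apoptosis, was at 316, 318 and 355 and 157, 139 and 160.3 (log2 fold change -1.11, SE 0.10, adjusted p = 5.12e-05). For each of these genes the highest KO Wnt5a library was below the lowest WT library. The groups did not overlap for 2672 of the 2701 called genes and 43.3% of all genes tested. List members were named by smallest p, so this separation is no added result. Ccng1, cyclin G1, was at 146, 126 and 153 and 55.4, 45.2 and 49.4 (log2 fold change -1.48, SE 0.14, adjusted p = 7e-05), and Pmaip1, the pro-apoptotic Noxa, fell by 1.41. In KO Ctrl, Cdkn1a averaged 98.6 ± 13 and in Wnt5a 111 ± 44.5 (SD, n = 3 each), both between the levels of WT and KO Wnt5a. The same order held for Phlda3 (25.9 and 33.3), Bax (229 and 235) and Ccng1 (91.7 and 101). The list's median was -0.40 in KO Ctrl minus WT, -0.31 in Wnt5a minus WT and -0.10 in KO Ctrl minus Wnt5a, where 1 member was called. Mdm2, Gdf15 and 9 other members were not called. Trp53 itself was not analysed here.

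A p53 half-site, matched by its consensus of 10 bases on both strands with no mismatch, was found in the 250 bases before a RefSeq start for 9 of the 27 tested members with a promoter in the table (33.3%), among them 6 of the 18 that were called, and for 8.2% of all genes. Bax and Ccng1 are shown as the called members with the smallest p that hold a match, which is in capitals and reads as a match on both strands. Both genes are on the minus strand of GRCm38.p6, Bax at chr7:45466899-45467148 and Ccng1 at chr11:40755287-40755536, and the matches begin 201 and 185 bases before the start.
Bax: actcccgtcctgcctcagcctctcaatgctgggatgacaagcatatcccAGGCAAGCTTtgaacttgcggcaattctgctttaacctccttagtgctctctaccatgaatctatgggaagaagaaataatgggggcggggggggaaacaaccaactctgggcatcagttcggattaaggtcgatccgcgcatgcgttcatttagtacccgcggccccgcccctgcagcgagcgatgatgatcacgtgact
Ccng1: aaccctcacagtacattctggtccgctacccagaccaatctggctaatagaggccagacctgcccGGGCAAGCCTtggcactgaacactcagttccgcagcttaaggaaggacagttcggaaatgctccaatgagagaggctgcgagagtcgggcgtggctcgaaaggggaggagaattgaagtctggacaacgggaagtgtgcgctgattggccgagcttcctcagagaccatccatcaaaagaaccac
No binding was measured.

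Mitotic genes moved the other way. Of 60 tested members 47 rose (78.3%, against 13.7% of all genes) and none fell. The median was 0.49, and 33 rose in every fit that left 1 library out. Top2a, the topoisomerase that untangles chromosomes, was at 97.6, 100.2 and 99.5 FPKM in WT and 160.2, 174 and 159.9 in KO Wnt5a (log2 fold change 0.72, SE 0.08, adjusted p = 0.000179). Mki67, the proliferation marker Ki-67, was at 13.6, 15.2 and 13.6 and 27.5, 26.1 and 24.2 (log2 fold change 0.83, SE 0.12, adjusted p = 0.000765). Prc1, which bundles the microtubules of the central spindle, was at 102, 97.9 and 95.4 and 183, 179.8 and 153 (log2 fold change 0.79, SE 0.11, adjusted p = 0.000572). The rises of these genes were of modest size but very even, which the naming of members by smallest p favours. Their groups of 3 did not overlap, as for 2672 of the 2701 called genes. Smc4, a condensin subunit, and the mitotic kinase gene Pbk rose by 0.53 and 0.63. KO Ctrl was close to KO Wnt5a for Top2a (151 ± 3.96) and Wnt5a lay between (124 ± 15.4). The list's median was 0.43 in KO Ctrl minus WT and 0.30 in Wnt5a minus WT. Top2a overlaps Gm26394 and Prc1 overlaps Rccd1 on the other strand.

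The promoters of mitotic genes are known for a cell cycle homology region together with CCAAT boxes, which bind the DREAM and NF-Y complexes. TTTGAA was present on either strand for 17 of the 50 members with a promoter (34%), against 18.3% of all genes, and CCAAT for 36 of 50 (72%), against 37.5%. Top2a (chr11:99024190-99024439, minus strand) and Prc1 (chr7:80294226-80294475, plus strand) are shown as called members with the smallest p that hold both, with every match on either strand in capitals. In Top2a a TTTGAA on the minus strand lies 23 bases before the start and in Prc1 one on the plus strand lies 30 bases before it.
Top2a: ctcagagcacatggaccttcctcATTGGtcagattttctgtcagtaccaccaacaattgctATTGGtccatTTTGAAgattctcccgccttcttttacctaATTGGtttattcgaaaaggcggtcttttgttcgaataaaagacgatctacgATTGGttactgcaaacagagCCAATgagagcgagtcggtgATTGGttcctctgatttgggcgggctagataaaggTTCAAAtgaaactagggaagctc
Prc1: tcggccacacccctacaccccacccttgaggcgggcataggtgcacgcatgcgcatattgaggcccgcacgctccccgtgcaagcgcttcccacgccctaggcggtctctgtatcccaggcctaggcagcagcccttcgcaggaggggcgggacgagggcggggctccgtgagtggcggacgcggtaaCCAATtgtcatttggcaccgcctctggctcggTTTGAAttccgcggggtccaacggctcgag
The same letters occur in many genes that were not called.

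DNA replication genes rose less. Of 46 tested members 14 were called higher (30.4%, against 13.7% of all genes) and none lower, with a median of 0.28. Mcm6, a subunit of the replicative helicase, rose from 155, 136 and 129 to 231, 218 and 196 FPKM (log2 fold change 0.62, SE 0.11, adjusted p = 0.00215), and Rrm1, a subunit of ribonucleotide reductase, by 0.39. The count was 4 without WT replicate 3 or without KO Wnt5a replicate 2, 9 without WT replicate 1, 8 and 7 without KO Wnt5a replicates 1 and 3, and 7 with median-ratio scaling, and 3 members were called in every fit that left 1 library out. Of 23 cell cycle regulators 6 rose (26.1%), among them Rb1 (0.47), its relative Rbl1 (0.63) and the kinase inhibitor gene Cdkn2c (0.47). Another 4 fell (17.4%, against 8.65% of all genes), namely Cdkn1a, Cdkn2b, Cdkn2d (-0.64) and the cyclin D gene Ccnd3 (-0.51). Of the 4 that fell 3 encode kinase inhibitors.

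Megakaryocyte and platelet genes gave the largest median shift of the 40 lists. These genes encode the adhesion receptors and granule proteins of platelets, and many are also active in the LT-HSC that are biased to platelets. Of 29 tested members 25 fell (86.2%, against 8.65% of all genes) and none rose, with a median of -1.44. Itgb3, the beta chain of the fibrinogen receptor, was at 91.2, 88.8 and 114 FPKM in WT and 35, 34.2 and 36.1 in KO Wnt5a (log2 fold change -1.44, SE 0.22, adjusted p = 0.00198). Gp9, a subunit of the receptor for von Willebrand factor, was at 272, 267 and 318 and 111, 101 and 115 (log2 fold change -1.38, SE 0.16, adjusted p = 0.000328). Cavin2, a coat protein of caveolae, was at 130.2, 119 and 135 and 30.5, 29.1 and 30.6 (log2 fold change -2.06, SE 0.18, adjusted p = 6.95e-05). The KO Wnt5a libraries were close to each other and all below WT, which the naming of members by smallest p favours. Gata1, the transcription factor of megakaryocytes and red cells, was at 92.2, 77.6 and 84.3 and 46.8, 45.2 and 33.5 (log2 fold change -1.01, SE 0.14, adjusted p = 0.000707). Selp, P-selectin, fell by 1.95, Alox12, 12-lipoxygenase, by 1.96, and Itga2b, CD41, by 0.93. Tubb6, a beta tubulin, was at 91.2, 78.9 and 95.3 in WT, 17.5, 24.1 and 17.2 in KO Wnt5a and 98, 68.6 and 105 in KO Ctrl (log2 fold change -2.13, SE 0.17, adjusted p = 2.69e-05). Cavin2 and Selp overlap noncoding genes on the other strand.

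Fewest of these genes were called when WT replicate 3 was left out. The same held over all genes, where the lower calls went from 1044 to 540. Without WT replicate 3, which was the highest WT library for most of them, 16 of the 29 were called, and these 16 were called in every fit that left 1 library out. The chemokine genes Pf4 (18977 to 28233 FPKM in WT, 6682 to 9813 in KO Wnt5a) and Ppbp (872 to 1276 and 103 to 253), with Gp6, Thbs1 and Vwf, were among the others. The summed level of the list was 23400 to 33840 FPKM in WT, 8558 to 12110 in KO Wnt5a, 13320 to 22310 in KO Ctrl and 14490 to 31660 in Wnt5a, and Wnt5a replicate 3 lay within the WT range. The median deviation from the WT mean was 0.168 there, -0.543 and -0.701 in the other Wnt5a libraries, -0.613 to -0.142 in KO Ctrl and -1.759 to -1.349 in KO Wnt5a. KO Wnt5a was thus below every other library. Whether platelets or megakaryocytes among the sorted cells took part in this was not tested.

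**Figure D3:**
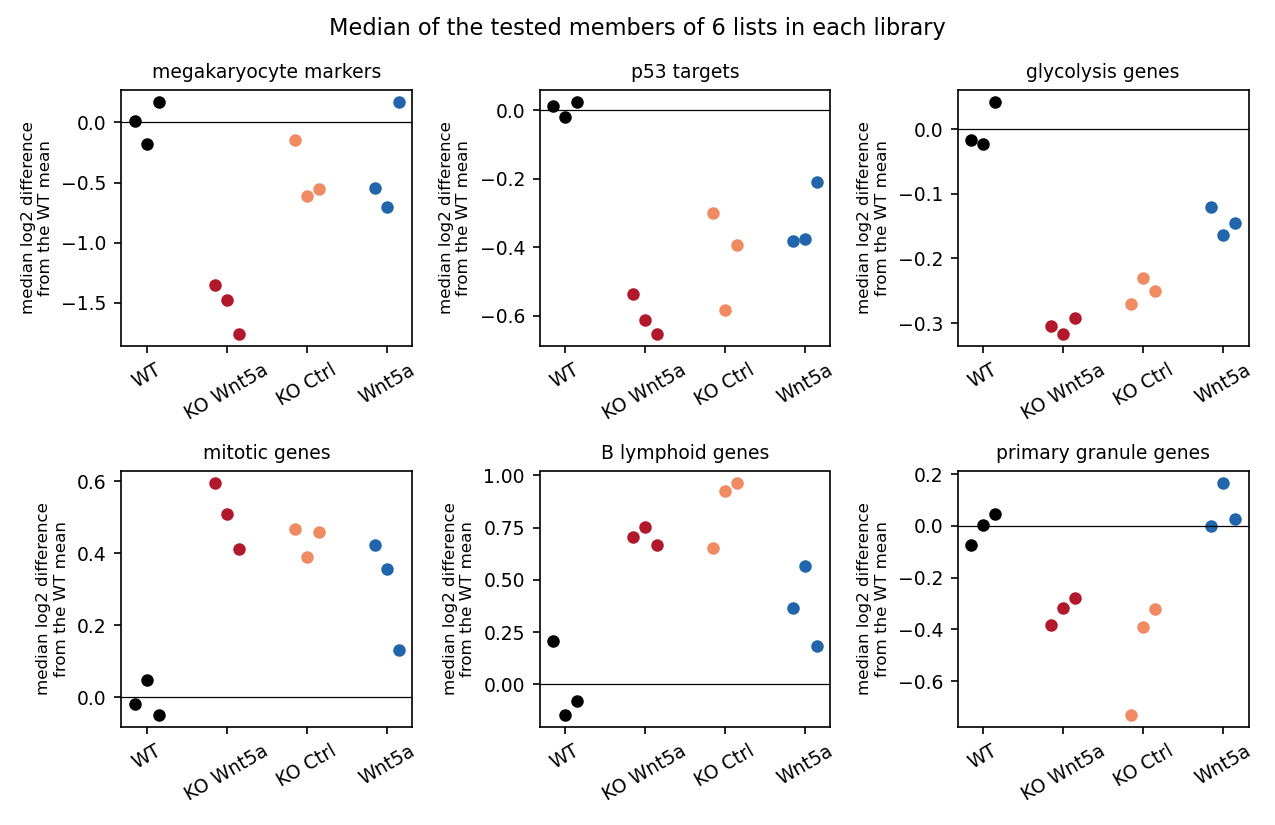
Median, over the tested members of each of 6 gene lists, of the log2 difference from the WT mean, in each of 12 libraries (points, 3 per group). KO Wnt5a lies lowest for the megakaryocyte markers, at -1.759 to -1.349, and both knockout groups lie together for the B lymphoid and primary granule genes.

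Markers of monocytes and of mast cells moved in both directions, more of them down. F13a1, the coagulation factor XIII subunit of monocytes and platelets, was at 8.09, 5.05 and 4.27 FPKM in WT and 0.208, 0 and 0 in KO Wnt5a (log2 fold change -2.64, SE 0.27, adjusted p = 8.01e-05). It passed the filter only through WT and had to differ to be tested. Fcer1g, the shared signalling chain of Fc receptors, was at 547, 593 and 718 and 259, 242 and 228 (log2 fold change -1.34, SE 0.21, adjusted p = 0.00291). Of 10 tested monocyte and macrophage markers 3 fell (30%, against 8.65% of all genes) and 1 rose (10%, against 13.7%), with a median of -0.04. The summed level of that list went from 641 to 814.8 in WT to 329.6 to 338.7 in KO Wnt5a. A sum follows its most abundant members, and Fcer1g alone was at 547 to 718 in WT and 228 to 259 in KO Wnt5a. The fall of the sum is therefore not one of the list as a whole, whose median was -0.04. Of 12 markers of mast cells, basophils and eosinophils 4 fell (33.3%) and 1 rose (8.33%), with a median of -0.38. Of 12 genes of ITAM signalling 5 fell (41.7%) and 1 rose (8.33%), with a median of -0.21. Tyrobp, an ITAM adaptor of myeloid and natural killer cells, was at 11.4, 13.9 and 11 in WT and 14.4, 17.4 and 17.8 in KO Wnt5a, with an adjusted p of 0.166, and at 1.45, 2.02 and 3.42 in KO Ctrl. Of 2 tested late neutrophil granule genes none was called. Cebpb, the transcription factor of emergency granulopoiesis, fell from 38.7, 57 and 76.1 to 18.3, 17.2 and 19 (log2 fold change -1.55, SE 0.25, adjusted p = 0.00233), and Csf2rb, the common beta chain of the interleukin-3 and GM-CSF receptors, and Socs3, a feedback inhibitor of cytokine signalling, fell by 1.20 and 1.30. Of 30 myeloid transcription factors 10 rose (33.3%) and 6 fell (20%), with a median of 0.07.

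Among the lymphoid genes tested, more were called higher than lower, some of them at low levels. Il7r, the interleukin-7 receptor chain of lymphoid progenitors, was at 0.765, 0.499 and 1.1 FPKM in WT and 7.44, 4.25 and 3.1 in KO Wnt5a (log2 fold change 1.68, SE 0.24, adjusted p = 0.000775). With only 1 WT library at 1 FPKM or more, Il7r passed the filter through the KO Wnt5a libraries. Ighm, the constant region of the immunoglobulin mu chain, was at 21, 11.4 and 9.19 and 41.4, 35.9 and 34.4 (log2 fold change 1.44, SE 0.27, adjusted p = 0.00482). Cd24a, a surface protein of early B cells, was at 39.7, 44.5 and 33 and 75, 73.6 and 79.8 (log2 fold change 0.96, SE 0.13, adjusted p = 0.00061), and KO Ctrl stood at 75.7 ± 5.46 (SD, n = 3). Of 13 tested B lymphoid genes 7 rose (53.8%, against 13.7% of all genes) and none fell, with a median of 0.71. The count was 3 without WT replicate 3 or KO Wnt5a replicate 3, and 4 without WT replicate 2 or KO Wnt5a replicate 1. Of 14 T and natural killer cell genes 6 rose (42.9%) and 1 fell (7.14%), with a median of 0.66, and these 7 calls held in every fit that left 1 library out. Another 12 of the 25 B lymphoid and 21 of the 35 T and natural killer cell genes listed were below the filter. A gene low in WT could pass the filter by being high in KO Wnt5a. These counts and medians therefore lean towards genes that differ. Cd7, a surface protein of T and natural killer cells, rose from 1.63, 3.51 and 1.74 to 9.01, 7.33 and 10.5 (log2 fold change 1.63, SE 0.19, adjusted p = 0.000237), Tcf7, the transcription factor TCF1, by 1.08, and the T cell receptor constant segment Tcrg-C4 by 1.47, while Cd28, a costimulatory receptor, fell by 1.78. The summed level of the B lymphoid genes was 99.4 to 131 in WT, 211 to 213.7 in KO Wnt5a, 205.7 to 238.2 in KO Ctrl and 129 to 192.5 in Wnt5a. That of the T and natural killer cell genes was 161.4 to 164.6 in WT, 183.6 to 204.5 in KO Wnt5a and 131 to 166.2 in KO Ctrl. In Wnt5a it was 156.4 to 220.5, which spans the KO Wnt5a range. The defining T cell marker Cd3e was listed at 0 in WT and KO Wnt5a. Whether lymphoid cells in the sort took part was not tested. Cd7 overlaps Gm11775 and Tcf7 overlaps A630014C17Rik on the other strand.

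Genes that mark LT-HSC moved in both directions. Of 34 tested members 9 rose (26.5%, against 13.7% of all genes) and 7 fell (20.6%, against 8.65%), with a median of 0.20. Hlf, a transcription factor of stem cell quiescence, rose from 4.92, 4.95 and 4.55 to 9.82, 9.01 and 9.38 FPKM (log2 fold change 0.84, SE 0.13, adjusted p = 0.00119). Mecom, which encodes Evi1, rose from 8.84, 8.45 and 5.72 to 19.6, 15.8 and 19.2 (log2 fold change 1.16, SE 0.18, adjusted p = 0.00111). Gata2, needed for stem cell survival, rose from 61.7, 67.9 and 59.8 to 132, 118 and 116 (log2 fold change 0.94, SE 0.15, adjusted p = 0.00131), while KO Ctrl stood at 66.7 ± 15 and Wnt5a at 53.2 ± 8.14 (SD, n = 3 each). Ly6a rose too (log2 fold change 0.97, SE 0.12, adjusted p = 0.000392), as did Kit (0.85, adjusted p = 0.00985), whose call was lost without WT replicate 3 (adjusted p = 0.0506). Among the falls, Fhl1 changed by -1.06, Ifitm3 by -0.52 and Gfi1b, a transcriptional repressor active in stem cells and megakaryocytes, by -0.47, and Trpc6 and Vwf, whose call was lost without WT replicate 3, are also on the megakaryocyte list. Gfi1b was not called with all 18 libraries in the fit (adjusted p = 0.151). Procr, the protein C receptor of LT-HSC, had a difference of 0.62 (adjusted p = 0.061), and Meis1 one of -0.04 (95% interval -0.19 to 0.10, adjusted p = 0.68). Of 22 quiescence genes 4 rose (18.2%) and 6 fell (27.3%), with a median of -0.06. Of 10 genes of multipotent progenitors 3 rose and 3 fell (30% each), with a median of 0.37. Of 13 imprinted genes 1 rose and 1 fell (7.69% each, below the shares of all genes), with a median of 0.02. Cd34 had a call of -0.22 (adjusted p = 0.0323) that was lost without any 1 of 5 libraries (WT replicates 1 and 3 and the 3 of KO Wnt5a), with quantile normalization, with all 18 libraries, without moderation and without the filter. Mecom overlaps Mecomos.

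A few Hox genes were higher. Of 12 listed Hoxb genes 2 passed the filter. Hoxb2 was at 3.38, 3.4 and 3.1 FPKM in WT and 6, 5 and 5.93 in KO Wnt5a (log2 fold change 0.63, SE 0.16, adjusted p = 0.0162), with 4.23 ± 0.895 in KO Ctrl and 3.46 ± 0.707 in Wnt5a (SD, n = 3). Its call was lost without KO Wnt5a replicate 1 and without WT replicate 3 (adjusted p = 0.0681). The antisense transcript Hoxb5os was at 1.1, 1.36 and 1.15 and 2.12, 1.81 and 2.19 (log2 fold change 0.47, adjusted p = 0.066). Hoxb5, below the filter, was at 0.384, 0.604 and 0.689 in WT and 0.994, 1.46 and 1.22 in KO Wnt5a, and Hoxb4 averaged 0.31 and 0.565. Neither of the 2 tested genes of the cluster was called lower. Hoxb2 overlaps Hoxb3os, and Hoxb5 and Hoxb6 overlap Hoxb5os, so these pairs cannot be separated. Of 5 tested Hoxa genes 3 rose (60%, against 13.7% of all genes), with a median of 0.65. Hoxa9, a driver of stem and progenitor growth, rose from 11, 10.2 and 8.12 to 17.3, 19.2 and 21.7 (log2 fold change 0.92, SE 0.19, adjusted p = 0.00572) and was the 1 of the 3 called in every fit that left 1 library out.

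Of the Wnt lists 6 of 22 and 4 of 15 genes were called in either direction, shares near the 22.4% of all genes. Wnt5a itself was at or near 0 in all 6 libraries, with at most 0.014 FPKM. Of 22 tested genes of noncanonical Wnt signalling 5 rose (22.7%, against 13.7% of all genes) and 1 fell (4.55%, against 8.65%), with a median of 0.25. Ryk, a receptor of Wnt5a, rose from 8.52, 9.08 and 9.34 to 16.4, 15.2 and 12.3 (log2 fold change 0.64, SE 0.14, adjusted p = 0.00726), and the polarity gene Vangl1 by 0.61. Ryk and Vangl1 were the 2 called in every fit that left 1 library out, and the count of rises was 2 without WT replicate 3 and 3 without KO Wnt5a replicate 3. Ror2 was below the filter, at 0.012 to 0.144 in WT and 0.027 to 0.137 in KO Wnt5a. Of 27 calcium and NFAT genes 5 rose, among them the protein kinase C gene Prkcb (1.31), and 5 fell, among them Prkca (-0.80). These were 18.5% in each direction, with a median of 0.07. Of 15 canonical Wnt genes 4 rose (26.7%, against 13.7%) and none fell (median 0.19), and the count was 2 without WT replicate 3 or KO Wnt5a replicate 1. Myc rose from 60.1, 58.2 and 51.1 to 120.3, 117 and 94.8 (log2 fold change 0.95, SE 0.14, adjusted p = 0.00104).

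Of 15 tested retinoic acid genes 4 rose (26.7%, against 13.7% of all genes) and 3 fell (20%, against 8.65%), with a median of 0.13. Rarg, the receptor RAR gamma, which is known to favour stem cell self-renewal in mice, was at 4.47, 3.77 and 4.53 FPKM in WT and 1.6, 1.42 and 2.09 in KO Wnt5a (log2 fold change -0.96, SE 0.16, adjusted p = 0.00187). Aldh1a1, an enzyme that makes retinoic acid, was at 53.6, 52.7 and 48.7 and 25.3, 31 and 38.4 (log2 fold change -0.71, SE 0.14, adjusted p = 0.00388). Tgm2, transglutaminase 2, rose by 0.73. Rarg averaged 3.4 in KO Ctrl and 2.88 in Wnt5a, between WT and KO Wnt5a. Aldh1a1 overlaps Gm6684 on the other strand.

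Glycolysis genes were lower. Of 28 tested members 15 fell (53.6%, against 8.65% of all genes) and 4 rose (14.3%, against 13.7%). The median was -0.31, and 10 falls and 0 rises held in every fit that left 1 library out. The rises came to 0 without WT replicate 3, to 1 without WT replicate 2 or KO Wnt5a replicate 1, with quantile normalization or with median-ratio scaling, and to 2 without KO Wnt5a replicate 3, and the falls to 10 without WT replicate 3. Pgam1, phosphoglycerate mutase, was at 388, 389 and 434 FPKM in WT and 264, 252 and 243 in KO Wnt5a (log2 fold change -0.67, SE 0.07, adjusted p = 0.000115). Ldha, which makes lactate, was at 3438, 3203 and 3514 and 2454, 2449 and 2299 (log2 fold change -0.495, SE 0.06, adjusted p = 0.000175). Eno1, enolase, was at 1355, 1300.4 and 1402 and 1017, 947 and 936 (log2 fold change -0.48, SE 0.05, adjusted p = 0.00016). The differences of these 3 genes were small but larger than the spread between replicates, which the naming of members by smallest p favours. KO Ctrl was near KO Wnt5a for Pgam1 (259 ± 9.31) and Ldha (2393 ± 63.8), and both were called in KO Ctrl minus Wnt5a (-0.33 and -0.27, adjusted p = 0.0412 and 0.0315). The list's median was -0.27 in KO Ctrl minus WT. ACGTG, the core bound by hypoxia-inducible factors, was present on either strand before the start of 14 of the 27 members with a promoter (51.9%), against 18.5% of all genes, and for 10 of the 18 called ones. The promoter of Pgam1 (chr19:41911621-41911870, plus strand) is shown as that of the member with the smallest p, with its 1 match in capitals.
Pgam1: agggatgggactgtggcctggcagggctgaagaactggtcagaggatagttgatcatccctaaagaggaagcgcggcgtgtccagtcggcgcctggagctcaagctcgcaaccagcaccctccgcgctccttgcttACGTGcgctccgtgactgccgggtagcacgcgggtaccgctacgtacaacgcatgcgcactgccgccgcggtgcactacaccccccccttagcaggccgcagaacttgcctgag

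Genes of the ribosome and of oxidative phosphorylation shifted little, and by an amount that depended on the scaling. Of 77 tested ribosomal protein genes 9 fell (11.7%, against 8.65% of all genes) and 1 rose (1.3%, against 13.7%), with a median of -0.12. The number of falls was 3 under quantile normalization, 38 under median-ratio scaling, and 1 without WT replicate 2, WT replicate 3 or KO Wnt5a replicate 1. It was 3 without KO Wnt5a replicate 2, 18 without KO Wnt5a replicate 3 and 15 without KO Ctrl replicate 1. Rpl10 fell by 0.30. Of 73 nuclear genes of oxidative phosphorylation 11 fell (15.1%) and 1 rose (1.37%), with a median of -0.08. With quantile normalization their median was 0 and 5 fell, and with median-ratio scaling 38 fell. The count was 2 to 4 without WT replicate 2, WT replicate 3, KO Wnt5a replicate 1 or KO Wnt5a replicate 2, and 17 without WT replicate 1 or KO Ctrl replicate 1. Ndufa3, a subunit of complex I, fell from a mean of 1527 ± 122 to 1056 ± 42.2 (SD, n = 3 each). It overlaps Tfpt on the other strand.

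Cytoskeleton genes mostly fell. Of 34 tested members 18 fell (52.9%, against 8.65% of all genes) and 5 rose (14.7%, against 13.7%). The median was -0.39, and 14 falls and 1 rise held in every fit that left 1 library out. The rises came to 1 without WT replicate 3, to 2 without WT replicate 1 or KO Wnt5a replicate 3, and to 3 without KO Wnt5a replicate 1 or 2, with quantile normalization or with median-ratio scaling. Actg1, a cytoplasmic actin, was at 2168, 2079 and 2342 FPKM in WT and 1265, 1289 and 1284 in KO Wnt5a (log2 fold change -0.78, SE 0.09, adjusted p = 0.000264). Zyx, a focal adhesion protein, fell by 0.98, and the tropomyosin gene Tpm4 by 1.82. Vim, the intermediate filament vimentin, rose from 48.9, 60.5 and 51.5 to 105, 111 and 124 (log2 fold change 1.06, SE 0.11, adjusted p = 7.86e-05). Tubb6 and Cavin2 stand on both this list and the megakaryocyte list. Of 21 integrins and adhesion genes 3 rose (14.3%) and 6 fell (28.6%), with a median of 0.02. Among the falls, 3 (Itgb3, Itga2b and Selp) encode platelet receptors. Selplg, the ligand of P-selectin, rose from 69.1, 77.3 and 64.6 to 158, 164 and 167 (log2 fold change 1.21, SE 0.13, adjusted p = 0.000103), and KO Ctrl was at 159.9 ± 15.2 (SD, n = 3). Zyx overlaps Epha1 on the other strand.

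**Figure D4:**
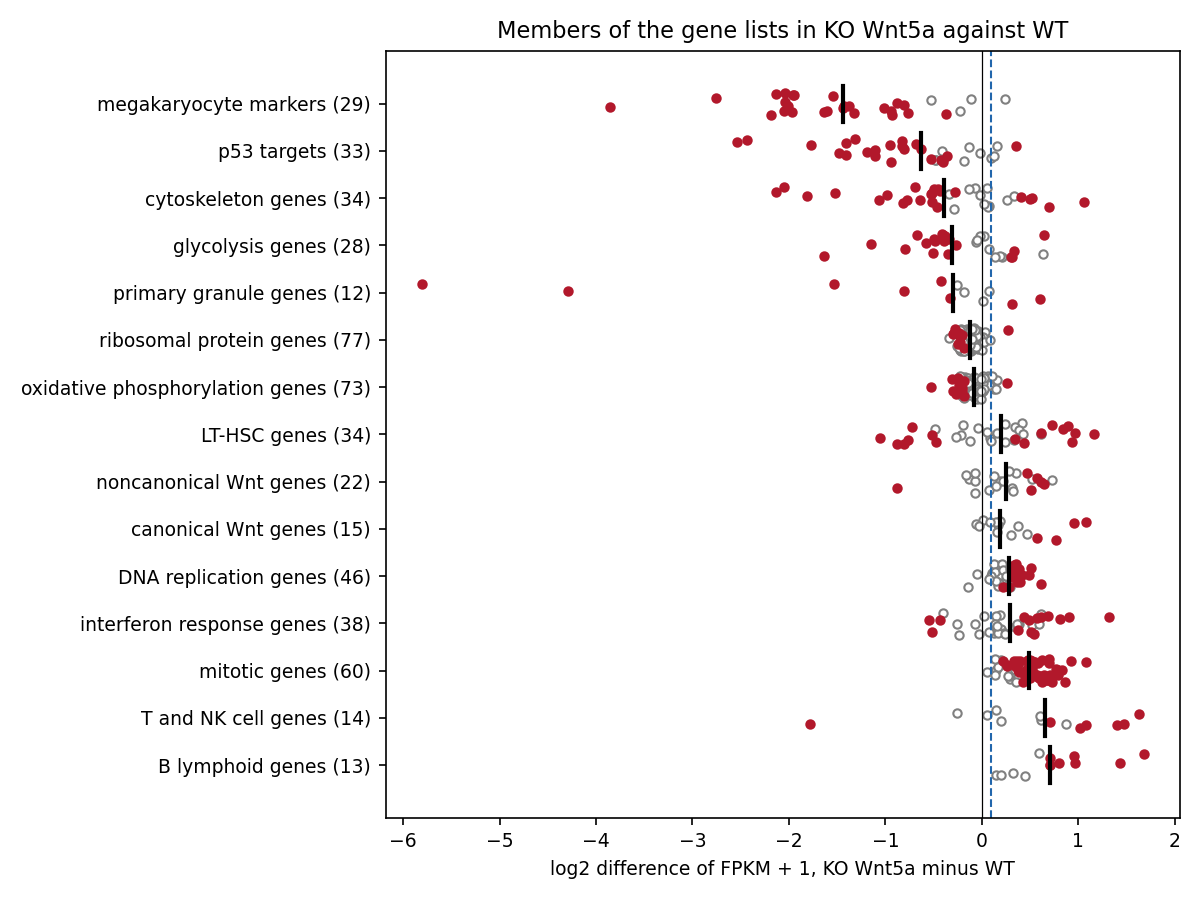
Log2 differences of FPKM + 1 between KO Wnt5a and WT for the tested members of 15 gene lists (points, filled red where called at an adjusted p below 0.05, numbers of tested members in brackets, black bars at list medians, blue dashed line at the median of all genes, 0.0995). The megakaryocyte markers (median -1.44) and p53 targets (-0.63) lie lowest and the B lymphoid genes (0.71) highest.

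Interferon and antigen presentation genes gave few calls that held. Of 38 tested interferon response genes 11 rose (28.9%, against 13.7% of all genes) and 3 fell (7.89%, against 8.65%), with a median of 0.29, but 2 rises and 1 fall held in every fit that left 1 library out, and the rises came to 6 with quantile normalization, 7 with median-ratio scaling, 3 without WT replicate 3, 5 without WT replicate 1 or KO Wnt5a replicate 3, 6 without WT replicate 2 or KO Wnt5a replicate 1 and 7 without KO Wnt5a replicate 2. Xaf1 and Parp9 (0.69) were the 2 rises that held, and Ifitm3 the fall. Of 18 genes of MHC class I presentation 5 rose (27.8%, median 0.28), and of 9 of MHC class II 2 rose (22.2%, median 0.17), none in every such fit. In either direction 22.4% of all genes were called.

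The remaining lists showed both directions. The shares over all genes were 13.7% higher and 8.65% lower. Of 20 immediate early genes 5 rose (25%) and 4 fell (20%), with a median of 0.03. Egr1, a transcription factor of stem cell quiescence, rose by 1.01, and Dusp6, a phosphatase that limits ERK signalling, from 11.5, 11.2 and 9.88 to 21.8, 22.3 and 24.2 (log2 fold change 1.003, SE 0.12, adjusted p = 0.0002). Of 19 heat shock genes 3 rose (15.8%) and 4 fell (21.1%), with a median of 0.03 and a fall of 0.38 in Hsp90b1. Of 23 genes of TGF-beta and BMP signalling 7 rose (30.4%), such as Smad4 (0.63) and Id1 (0.65). Another 3 of them fell (13%), Tgfb1 by 0.56, and the list's median was 0.26. Of 27 growth factor and cytokine receptors and their mediators 6 rose (22.2%) and 4 fell (14.8%), with a median of 0.14. Of 16 erythroid genes 1 rose, Car2 by 0.51 (6.25%), and 4 fell (25%), with a median of -0.09. Of 9 endothelial and stromal markers 3 fell (33.3%) and 1 rose (11.1%), with a median of -0.11. Flt1 fell from 9.93, 5.94 and 9.1 to 1.39, 0.297 and 0.346 (log2 fold change -2.51, SE 0.35, adjusted p = 0.000906). The summed level of this list stayed at 167.2 to 184.4 in KO Wnt5a and 172.8 to 183.8 in WT. Of 4 meiotic genes Syce1 and Syce2 (0.54) rose (median 0.76). Of 5 sex-linked transcripts Xist was called higher (0.71, adjusted p = 0.0255), a call lost without any 1 of the WT replicates or without KO Wnt5a replicate 3, and with quantile normalization, and the 4 Y-linked genes were not called (median of the list -0.09). Xist overlaps Tsix.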

How the data were processed

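RNA of sorted LT-HSC was amplified and sequenced as unstranded libraries (SMARTer ultra low input and Nextera kits, per the labels' protocols). Per the submitters' processing notes, CASAVA 1.8.2, TopHat2 2.0.10 and Cufflinks were used with mm10, and 1 deposited table gives FPKM values per gene, without counts, so depth was read only from the steps between low values of 5814 single-transcript genes. A signal of 3 fragments on a transcript of 1 kb corresponds to 0.0728 to 0.1364 FPKM, which covers counting error only. Every per-sample column was matched to a sample. Of 44349 genes, 16 with missing values were left out and are not analysed here.

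Log2(FPKM + 1) was tested with limma 3.58.1 in R 4.3.3 (trend and robust moderation, Benjamini-Hochberg adjustment over all 12075 genes, 1 mean per group over 12 libraries), after a test on simulated data in which 82% of genes changed 2-fold and 97% of those changed 4-fold were called. The simulation used independent normal noise and changed 100 genes at each fold, none of them among the lowest expressed. Its shares therefore do not hold for low genes. Coordinates and overlaps come from GENCODE M21, promoters from RefSeq (GRCm38.p6). Alternatives were other scalings, filters, pseudocounts and fits, and leaving out each library.

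The comparison, the 40 gene lists and the tests were chosen with earlier results of these data known. The naming rule took the Hoxb and gate genes, the 15 largest rises and falls with a mean of at least 5 FPKM in the higher group, up to 5 called members of each list by p, and up to 10 genes called with the same and 10 with the opposite sign in KO Ctrl against Wnt5a. The largest rises and falls were taken among called genes whose groups of 3 libraries did not overlap. Pseudogenes, unnamed models and receptor segments were left out of the largest changes. Pf4, Ppbp, Thbs1, Vwf, Trpc6, Tpm4, Elane, Prtn3, Cd3e, Cxcl12, S100a8, S100a9, Ror2, Wnt5a, Ddx3y, Mdm2, Gdf15, Sesn1, Cdkn2c, Trgj4 and Gm25436 were named after their values were seen. Some genes are not reported here.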

Additional observations from a re-analysis of the deposited data

Results flagged for a closer look

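For 4 genes the difference made by the Wnt5a label itself differed between genotypes in limma (0.0331% of genes tested, with 1221 genes at an unadjusted p below 0.05). The value given for each is the Wnt5a difference in the knockout minus that in the wild type, on the log2(FPKM + 1) scale. It was -1.76 for Tubb6 (adjusted p = 0.0322), which was low in the 3 KO Wnt5a libraries and at 56.5 to 105 FPKM in the 9 others. It was 3.20 for Rpl39l (adjusted p = 0.00329), which was at 8.53 to 12.5 FPKM in KO Wnt5a and at most 1.06 in the 9 others. It was 2.09 for Tyrobp (adjusted p = 0.0322), which was low in KO Ctrl alone. It was 4.14 for the immunoglobulin segment Ighv5-9-1 (adjusted p = 7.73e-05), which was at 27.8, 13.7 and 14.4 FPKM in KO Wnt5a and listed at 0 in all WT and KO Ctrl libraries. Ighv5-9-1 and Rpl39l were below 1 FPKM in WT and passed the filter only through the KO Wnt5a libraries. They had to be high there to be tested, so their adjusted p is no independent support.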

How the results depend on the processing

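The fit reported above called 2701 genes, 1657 higher and 1044 lower, and 163 in KO Ctrl against Wnt5a. Without the filter on low values 1660 genes were called (893 higher) and 76 in KO Ctrl against Wnt5a. Quantile normalization gave 1077 higher genes, median-ratio scaling 1047 and all 18 libraries 1086. KO Ctrl against Wnt5a gave 103 calls without trend and robust moderation, 78 with all 18 libraries, 50 with only its own 6 libraries, and 505 with library weights. Requiring a change above 1 on the log2 scale by test left 20 genes (6 higher, 14 lower) and 15. Leaving out 1 library gave 1170 to 3102 calls (630 to 1938 higher, 540 to 1164 lower), lowest without WT replicate 3, and 55 to 402 in KO Ctrl against Wnt5a, lowest without Wnt5a replicate 1 and highest without KO Ctrl replicate 1. The cause was not tested. A replicate block gave 2923 calls (1784 higher, 1139 lower) and 255 in KO Ctrl against Wnt5a, but the labels do not say that replicate numbers pair these samples. The values gave no sign of it: deviations of same-numbered WT and KO Wnt5a libraries correlated at -0.078 to -0.035, and 0 of 3 correlated best with their own number. So few libraries cannot exclude a pairing. Of 182 named genes called, none turned sign in any setting and 128 were called whichever library was left out. The other 206 results are single genes, list medians and the share of called genes that were higher. Of their 4885 values 4382 were labelled the same, 468 weaker, 9 stronger and 26 moved. List medians and the share were labelled by the size of their shift and not by calls. A list median stayed the same when it shifted by no more than the SD of library medians within a group. Without counts, low genes have no interval.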
